A study of Mus musculus with 12 samples.

Results

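The growth hormone, STAT5 and IGF1 axis of the mouse liver was described through 10 genes, taken by symbol from the 41128 genes of the deposited table. They were the receptors Ghr and Prlr, the signal transducers Stat5a and Stat5b, the feedback inhibitors Socs2 and Cish, the secreted products Igf1 and Igfals, and the repressors Bcl6 and Cux2. RNA of whole liver was sequenced from 12 C57BL/6 mice, 3 in each of 4 groups. All were littermates born germ-free and raised in sterile isolators to weaning at about 21 days. The germ-free (GF) males and females stayed in the isolators and carried no microbes. The conventionalized (CV) males and females were housed for the next 3 weeks on soiled bedding that came from other parts of the animal house. Every mouse was 6 weeks old when its liver was taken, and the labels name no engineered allele. The CV mice therefore met microbes only after weaning, and microbial exposure and the move out of the isolator cannot be told apart.

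Growth hormone is secreted by the pituitary gland and binds the receptor GHR on hepatocytes, where the kinase JAK2 phosphorylates STAT5A and STAT5B. These factors enter the nucleus and induce IGF1, its binding partner IGFALS, and SOCS2 and CISH, which dampen the receptor's signal. In rodents growth hormone is released in pulses in males and more evenly in females, and many liver genes differ between the sexes as a result. BCL6 represses STAT5 targets and is described as male-biased in adult liver, whereas CUX2 is a female-biased repressor of male-biased genes.

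The libraries held 5993619 to 15290835 reads, and values are normalized read counts, that is, reads divided by a size factor for each library. Mitochondrial ribosomal RNA took 9.36 to 16.4% of the reads of GF libraries and 1.39 to 6.32% of those of CV libraries. Together with Lars2 and 3 predicted genes it formed 6 abundant loci, which left 1886932 to 5399556 reads for other genes in GF and 6994374 to 14453077 in CV. The library labelled CV male 3 went against its label. It held an Xist value of 2382, against 4.68 to 21.3 in the other 5 libraries labelled male, and 0 reads of 4 Y-linked genes, against 796 to 1314 reads. Calls of axis genes that rest on it are given with and without it. The hepatocyte markers were present in every library, with Alb between 47019.6 and 278958, so the tissue label held. The summed value of 8 lymphocyte markers was 366 to 672 in GF and 89.0 to 168 in CV libraries, and that of 5 erythroid markers was 2777 to 32885 and 916 to 3159. No lymphocyte or erythroid marker was at 0 in every library. In whole liver, fewer cells of a type and less RNA per cell cannot be told apart.

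STAT5 dimers bind the palindrome TTCNNNGAA, and promoters of the axis genes were searched for it. Windows of 300 bases, 250 before and 50 after each annotated transcript start, were taken from RefSeq on GRCm38.p6. Of 32851 such windows of all genes, 2726 (8.30%) held the motif and 150 (0.457%) held at least 2 copies. Both strands give the same matches, because the motif is its own reverse complement. Sequences were found for 9 of the 10 genes, and 6 of their 18 windows held it. Cish, Bcl6, Igfals and Prlr had a match. Ghr, Stat5a, Stat5b, Igf1 and Cux2 had none in these windows, which says nothing of sites elsewhere. Socs2 was not among the sequences. The windows with the most copies, of Cish (chr9:107296409-107296708, plus strand) and Bcl6 (chr16:23981234-23981533, minus strand), and an Igfals window (chr17:24877981-24878280, plus strand) are shown 5′ to 3′, with the matches in capitals.
Cish: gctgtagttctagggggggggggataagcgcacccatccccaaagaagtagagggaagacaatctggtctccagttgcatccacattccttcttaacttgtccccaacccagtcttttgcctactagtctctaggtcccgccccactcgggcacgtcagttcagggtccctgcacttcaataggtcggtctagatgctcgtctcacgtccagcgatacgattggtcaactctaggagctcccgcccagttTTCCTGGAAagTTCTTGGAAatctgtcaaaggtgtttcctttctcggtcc
Bcl6: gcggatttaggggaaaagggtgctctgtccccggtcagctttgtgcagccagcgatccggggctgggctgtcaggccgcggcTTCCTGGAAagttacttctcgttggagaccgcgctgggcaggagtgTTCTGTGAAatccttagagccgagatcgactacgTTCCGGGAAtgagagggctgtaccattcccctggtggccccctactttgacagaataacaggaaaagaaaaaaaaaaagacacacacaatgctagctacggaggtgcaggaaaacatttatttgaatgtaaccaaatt
Igfals: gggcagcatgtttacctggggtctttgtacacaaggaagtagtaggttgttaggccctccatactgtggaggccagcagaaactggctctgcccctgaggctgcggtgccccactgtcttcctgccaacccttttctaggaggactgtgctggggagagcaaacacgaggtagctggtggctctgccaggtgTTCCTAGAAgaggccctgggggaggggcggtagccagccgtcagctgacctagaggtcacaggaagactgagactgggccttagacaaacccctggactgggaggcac
The Cish copies lay at bases 251 to 259 and 262 to 270 of the window, so the upstream copy began at the transcript start used for this window, which lies inside the annotated gene. The 3 Bcl6 copies began at -168, -122 and -88 relative to a transcript start inside the gene. The Igfals copy began at -58 relative to a start that also lies within the gene. A match is a sequence feature and no evidence of binding in these livers.

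The genes spanned a wide range of abundance. Per kilobase of exon, the normalized count over the 12 libraries was highest for Igf1 (566 ± 198, SD), followed by Ghr (254 ± 91.2), Igfals (186 ± 118) and Prlr (116 ± 59.9). Stat5b (47.7 ± 12.5), Bcl6 (42.0 ± 28.3), Socs2 (25.1 ± 22.1), Cux2 (14.8 ± 19.7), Stat5a (10.1 ± 4.01) and Cish (9.10 ± 6.21) followed. The libraries of each pair of neighbours in this order overlapped. Farther apart in the order, Stat5b was at 35.1 to 76.0 per kilobase and Stat5a at 4.85 to 17.1. Stat5b was thus the more abundant of the paired transducers on this scale in each of the 12 livers.

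To determine which of the axis genes differed between GF and CV livers, groups were compared with limma on log2(value + 1) over 11782 genes. Over both sexes, 4 of the 10 genes passed an adjusted p of 0.05, beside 61.1% of all genes tested. Igfals and Ghr were higher in CV livers, in a direction taken by 32.3% of all genes, and Socs2 and Bcl6 were lower, as were 28.7%. With most genes called, these counts are no result about the axis as a whole. The axis genes' median log2 change was -0.09, against 0.07 for all genes. In females 3 of the 10 passed (55.8% of all genes), and in males 2 of the 10 (29.5%). Without the library labelled CV male 3, 5 passed over both sexes, 5 in females and 3 in males, beside 60.2%, 56.1% and 25.2% of all genes.

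**Figure D1:**
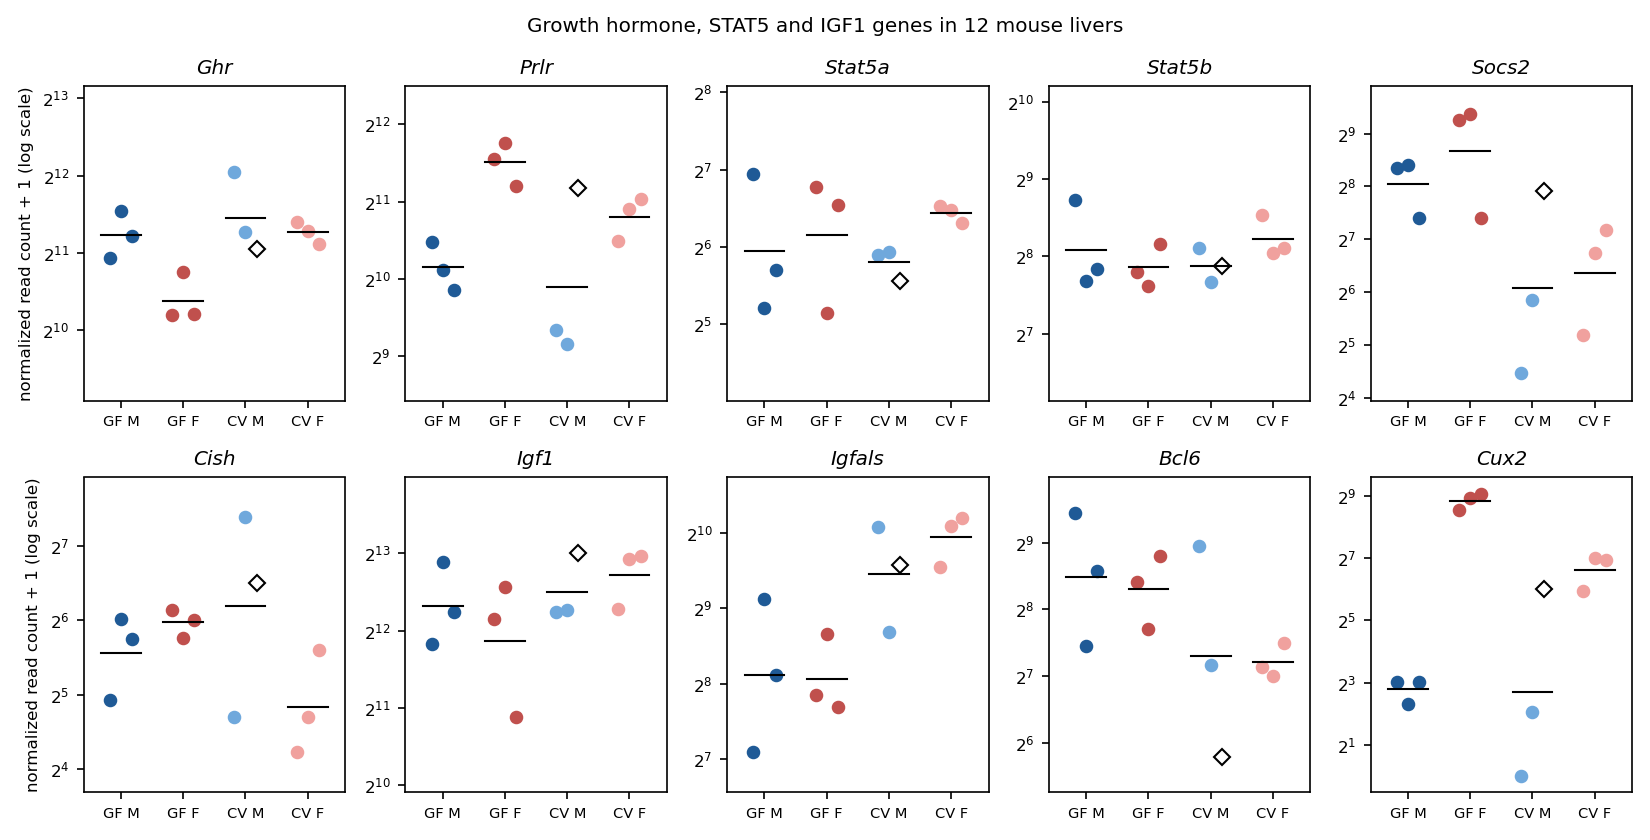
Normalized read count + 1 of each axis gene (vertical axis, log scale) in the 3 libraries of each group (horizontal axis: GF and CV, M and F), with the group's geometric mean as a black bar and the library labelled CV male 3 as a white diamond. Igfals libraries of CV females lie at 744 to 1176, above all GF females, and Cux2 separates GF males (3.99 to 7.16) from GF females (374 to 533).

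Ghr, the receptor through which the liver senses growth hormone, lies on the minus strand of chromosome 15 (3317760 to 3583492, GRCm38). In GF females its normalized counts were 1171, 1718 and 1181, and in CV females 2711, 2495 and 2215. All CV females lay above all GF females. GF males held 1954, 2979.7 and 2378, and CV males 4239.6, 2474 and 2117. These male groups overlapped, and the highest value of all was in CV male 1. The change in females was 0.88 ± 0.29 (log2, SE), with an adjusted p of 0.0176 by limma, and in males 0.23 ± 0.29, which did not pass (adjusted p = 0.586). Over both sexes it was 0.56 ± 0.21 (adjusted p = 0.0290), or 1.47-fold. The female and male changes were not shown to differ, since the interaction of condition and sex had an adjusted p of 0.495. The Ghr call over both sexes held in 11 of 21 alternative settings. It ended when the reads outside the 6 abundant loci served as the total (log2 change 0.12 over both sexes, 0.30 in females), and without GF male 1 or 3, GF female 1 or 3, CV male 1 or CV female 1 or 2 (0.41 to 0.55). The call over both sexes also ended without the filter on low values and with the share of mitochondrial ribosomal RNA as a covariate. The female call ended with that covariate and without GF female 1 or 3 or CV female 1 or 2 (0.79 to 0.88 for these omissions).

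Prlr encodes the prolactin receptor, which also signals through STAT5 and is female-biased in rodent liver. It spans 10177238 to 10349180 on the plus strand of chromosome 15 and overlaps the predicted gene Gm21973 on the same strand, so reads of the overlap are uncertain. GF females held 3005, 3477 and 2358 normalized counts of Prlr and CV females 1436, 1908 and 2093. Every CV female lay below every GF female. GF males held 1424, 1109 and 927, and CV males 649, 569 and 2316. CV males 1 and 2 lay below all GF males, and the library labelled CV male 3 lay above them, in the range of females. The log2 change over both sexes was -0.48 ± 0.29 and did not pass (adjusted p = 0.158). Leaving out the library labelled CV male 3 gave -0.80 ± 0.20 and passed (adjusted p = 0.00255, the lowest of the 21 alternatives, of which the highest was 0.804). Without that library the changes in females (-0.70) and in males (-0.90) passed as well. The female change also passed with all libraries when scaled to reads outside the 6 loci (-1.29, against a median of -0.50 for all genes). Over both sexes the change passed in 2 of the 21 alternatives. The sign depended on the processing, with -0.92 when scaled to reads outside the 6 loci and 0.08 when scaled to all reads. It was 0.58 after a correction for length and GC content, made by removing a smooth trend from each library.

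Neither transducer passed the test between conditions in the deposited scaling. Stat5b, on the minus strand of chromosome 11 (100780731 to 100850724), held 421, 204 and 228 in GF males, 222, 194 and 286 in GF females, 274, 202 and 233 in CV males and 369, 263 and 273 in CV females. The conditions overlapped in each sex. Its log2 change over both sexes was 0.08 ± 0.20 (95% interval -0.34 to 0.50, adjusted p = 0.730). It passed when scaled to all reads (0.64, against a median of 0.62 for all genes under that scaling) and after correction for length and GC content (0.42). Stat5a, its neighbour (100859351 to 100885169, plus strand), overlaps Stat3 on the opposite strand. Its values ran from 34.6 to 122 in GF and from 46.3 to 91.7 in CV livers, so GF enclosed CV. The log2 change of Stat5a was 0.07 ± 0.30 (95% interval -0.57 to 0.70, adjusted p = 0.855). Phosphorylation, by which STAT5 proteins are activated, was not measured.

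Socs2, a growth hormone-induced inhibitor of the receptor is on the minus strand of chromosome 10 at 95385362 to 95417180. GF males held 326, 338 and 169 normalized counts and GF females 608, 657 and 169. CV males held 21.3, 56.4 and 239, and CV females 35.3, 106 and 143. Each CV female was below each GF female, whereas the library labelled CV male 3 reached into the range of GF males. Over both sexes the log2 change was -2.14 ± 0.50 (limma, adjusted p = 0.00139), which put CV at 0.226 of the GF level. The change was -2.31 ± 0.70 in females (adjusted p = 0.0104) and -1.98 ± 0.70 in males (adjusted p = 0.0433). Without the library labelled CV male 3 the male change was -2.89 ± 0.60 and the change over both sexes -2.60 ± 0.40, and both passed. The call over both sexes held in 20 of 21 alternatives. The male call held in 8 of 21, and ended without any 1 of the other 5 male libraries (-2.30 to -1.18) and, through the common spread, without GF female 1 or CV female 2 (-1.98). It also ended without the filter on low values (-1.98), when scaled to all reads (-1.67), after the length and GC correction (-1.88), with edgeR (-1.47), with DESeq2 (-1.40) and with the covariate described next (1.16). The female call ended without CV female 1 (-1.72) and when scaled to all reads (-1.51). Over both sexes it was lost only when the share of mitochondrial ribosomal RNA entered as a covariate, where the estimate was 3.09 with an adjusted p of 0.259, but that share followed the 4 groups closely, which took up 93.5% of its variance.

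Cish encodes another inhibitor of the same family (chromosome 9, 107296026 to 107302784, plus strand) and overlaps 2 predicted genes on the opposite strand. It was scarce, with 20 to 208 reads per library. GF females held 69.4, 53.2 and 63.3 normalized counts and CV females 17.7, 24.9 and 47.6. Every CV female lay below every GF female. GF males held 29.5, 63.9 and 52.4, and CV males 25.0, 165 and 89.0, so the male groups overlapped and CV males spread widely. The female change was -1.13 ± 0.52 and missed the threshold (adjusted p = 0.0769), and the male change was 0.63 ± 0.52 (adjusted p = 0.383). The female change passed without CV male 1 or 2 or CV female 3 (-1.51 to -1.13), and the male change without CV male 1 (1.37). Scaled to reads outside the 6 loci, the female change passed too (-1.70, against a median of -0.50 for all genes). The interaction had an adjusted p of 0.422, so opposite signs in the sexes were not shown to differ. Without CV male 1 the interaction was called, with a log2 difference of -2.50 (adjusted p = 0.0401, the lowest of 20 alternatives that gave a value, of which the highest was 0.989). In females the paired inhibitors Socs2 and Cish thus both separated the conditions, and Socs2 passed the test.

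Igf1, the main endocrine product of growth hormone action in liver, spans 87858265 to 87937042 on the plus strand of chromosome 10 and overlaps the antisense gene Igf1os. GF males held 3644, 7612 and 4821 normalized counts, GF females 4535, 6083 and 1896, CV males 4846, 4919.6 and 8192, and CV females 4953, 7775 and 7982. The conditions overlapped in both sexes, although CV females 2 and 3 lay above all GF females, and GF female 3 held the lowest value of all. The log2 change was 0.52 ± 0.29 over both sexes (95% interval -0.10 to 1.14) and did not pass (adjusted p = 0.137). In females it was 0.85 ± 0.42 (limma, adjusted p = 0.0914). Without the library labelled CV male 3 the change over both sexes was 0.39 ± 0.30 and did not pass (limma, adjusted p = 0.276). The male change was 0.18 with that library and -0.07 without it, and passed in neither fit. The result turned on the scaling. With all reads as the total, the change over both sexes was 1.08 (adjusted p = 0.00149), and with reads outside the 6 loci 0.08 (adjusted p = 0.791), over alternatives whose lowest adjusted p was 0.000861. It also passed after the length and GC correction (1.28) and without GF female 2 (0.69).

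Igfals encodes the acid-labile subunit, which holds IGF1 and its binding protein in a stable complex in blood, and lies at 24865997 to 24882010 on the plus strand of chromosome 17. GF males held 135, 558 and 276 normalized counts and GF females 229, 402 and 205. CV males held 1086, 410.2 and 763, and CV females 744, 1088 and 1176. All CV females were above all GF livers of either sex. Among males only CV male 2 fell within the GF range. Igfals rose by 1.61 ± 0.31 (log2) over both sexes, or 3.05-fold (limma, adjusted p = 0.000328). It rose by 1.88 ± 0.44 in females (adjusted p = 0.00190) and by 1.34 ± 0.44 in males (adjusted p = 0.0321). The male value was 1.27 ± 0.49 without the library labelled CV male 3 and no longer passed (adjusted p = 0.0671, in a range of 0.00514 to 0.715 over 21 alternatives). The male call also ended without GF male 1 or 3 or CV male 1 (0.83 to 1.34). It was lost too without the filter on low values, after the length and GC correction and with the mitochondrial share as covariate. Over both sexes the call held in 20 of 21 alternatives, with changes of 1.17 to 2.17, and was lost with the mitochondrial share as covariate (0.28).

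**Figure D2:**
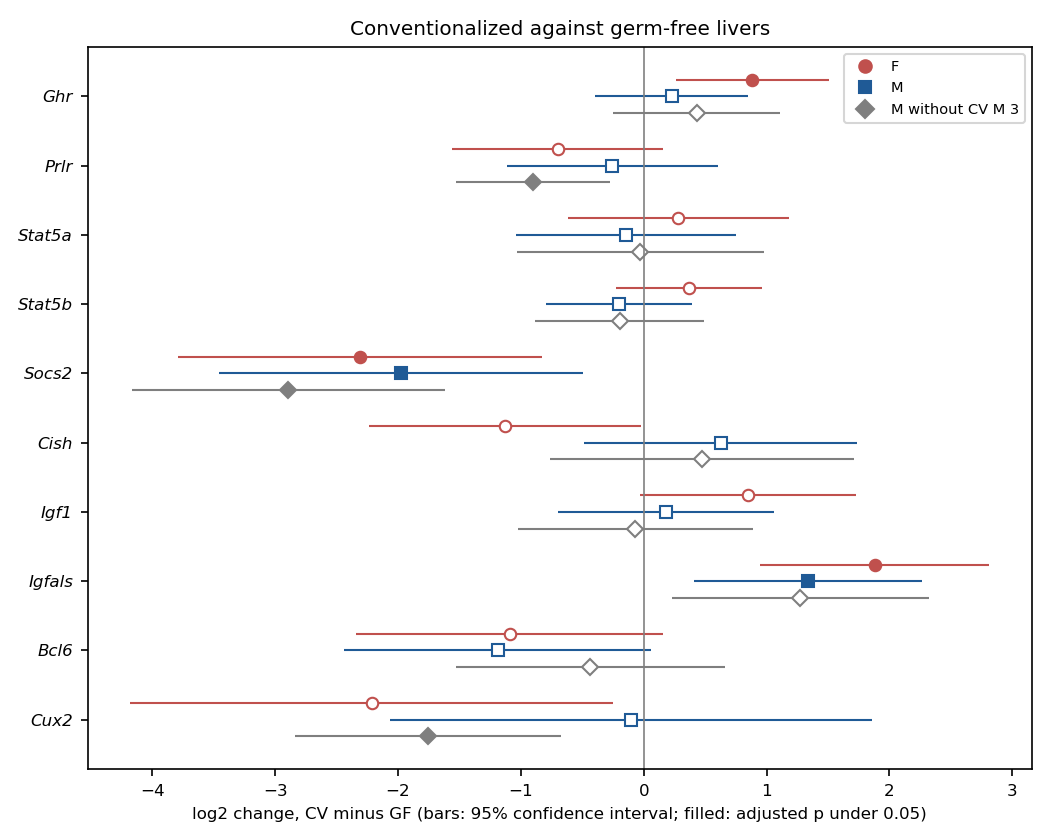
Log2 change of each axis gene, CV minus GF (horizontal axis), in females (red circles), males (blue squares) and males without the library labelled CV male 3 (grey diamonds), with 95% confidence intervals as bars and filled symbols for an adjusted p under 0.05. Socs2 lies left of 0 and Igfals right of 0 in each series, while the Stat5a, Stat5b and Igf1 intervals include 0.

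Bcl6, a repressor that occupies many STAT5 sites, lies at 23965052 to 23988852 on the minus strand of chromosome 16 and overlaps the predicted gene Gm37419 on the opposite strand. GF males held 692, 174 and 381 normalized counts, and GF females 339.6, 207 and 443. CV males held 493, 142 and 54.5, and CV females 139, 128 and 179. Every CV female lay below every GF female, whereas male groups overlapped because CV male 1 exceeded 2 of the GF males. Over both sexes Bcl6 fell by 1.14 ± 0.42 (log2; adjusted p = 0.0262), and in neither sex alone did the change pass (-1.09, adjusted p = 0.126 in females, and -1.19, adjusted p = 0.138 in males). Without the library labelled CV male 3 the change over both sexes was -0.76 ± 0.35 and did not pass (adjusted p = 0.0675, in a range of 0.00133 to 0.243 over 21 alternatives). The male change passed without GF male 2 (-1.71) or CV male 1 (-2.01), and the female change without CV male 1 (-1.09). The female change also passed when scaled to reads outside the 6 loci (-1.68, against a median of -0.50 for all genes). The call over both sexes held in 12 of these 21 alternatives, and it also ended without GF male 1, GF female 1 or 3 or CV female 2 (-1.11 to -0.90) and when scaled to all reads (-0.58). Its other losses included the fit without the filter on low values and the fit with the mitochondrial share as covariate. Bcl6 is also expressed in lymphocytes, whose 6 tested markers of 8 were all lower in CV livers, and their part in this change was not tested.

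Cux2 lies at 121856366 to 122050102 on the minus strand of chromosome 5 and overlaps 2 predicted genes on the opposite strand. GF females held 374, 489 and 533 normalized counts and CV females 60.6, 128 and 123. All CV females were below all GF females, by a log2 change of -2.22 ± 0.93 that fell short of the threshold (adjusted p = 0.0521). Without the library labelled CV male 3, which enters the common estimate of spread, the same change passed (adjusted p = 0.000718, in a range up to 0.383 over 21 alternatives). It passed in 6 of the 21, among them the fits without CV male 1, with the replicate number as a block and with reads outside the 6 loci as the total (-2.80). GF males held 7.16, 3.99 and 7.09, from 3 to 8 reads, and CV males held 0, 3.18 and 62.7, from 0, 4 and 69 reads. The 0 in CV male 1 allows a value of up to 1.56, that of 3 reads. The library labelled CV male 3 was in the range of CV females and the other CV males were below the lowest GF male. The male change was -0.10 with that library (adjusted p = 0.945) and -1.76 ± 0.51 without it (adjusted p = 0.0218), which then rests on 4 reads in the CV males. Trim24, a hepatocyte cofactor that is also female-biased, had a like order of groups, with 546 ± 58.8 in GF females and 182 ± 54.1 in CV females (SD, n = 3), and fell by 1.62 ± 0.38 on the log2 scale in females (limma, adjusted p = 0.00182).

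In females 7 of the 10 genes had no overlap between GF and CV libraries, beside 64.9% of all genes. Ghr and Igfals, 2 genes, were higher, as were 34.0% of all genes, and Prlr, Socs2, Cish, Bcl6 and Cux2, 5 genes, were lower, as were 31.0%. In males 0 of the 10 genes were free of overlap, beside 43.0% of all genes. For Prlr, Socs2 and Cux2, the overlap in males came from the library labelled CV male 3. The share of all genes free of overlap in males without that library was not computed, so no result about the axis is read from these genes. Igfals overlapped through CV male 2 and Bcl6 through CV male 1.

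The size of every change depended on how libraries were scaled. The median log2 change of all genes over both sexes was 0.07 as deposited, 0.62 when scaled to all reads and -0.35 when scaled without the 6 loci. Subtracting the median removes a common rescaling by construction, so the differences from it give position among all genes and no sign of stability. As deposited they were -2.22 for Socs2, -1.21 for Bcl6, 0.48 for Ghr, 1.54 for Igfals and 0.44 for Igf1. After the correction for length and GC content, Igf1 moved to 1.22 and Prlr from -0.55 to 0.51 relative to the median, whereas Socs2 (-2.08), Bcl6 (-1.19) and Igfals (1.31) moved less. Cux2 also moved, from -1.23 to -0.21.

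To see where the axis genes differed between the sexes, libraries labelled male and female were compared within each condition. Cux2 was the 1 gene of 10 that passed, over both conditions (1.16% of all genes passed) and in GF livers (1.63%). None of the 10 passed in CV livers (0.0594% of all genes, or 7 genes). The GF difference in Cux2 was -6.06 ± 0.93 (log2, M minus F, adjusted p = 0.00315). Its GF males and GF females did not overlap. In CV livers the difference was -3.95 ± 0.93 and did not pass (adjusted p = 0.268), whereas leaving out the library labelled CV male 3 gave -5.60 ± 0.51 (adjusted p = 2.57e-06). Prlr showed the other female-biased pattern. Its difference over both conditions was -1.14 ± 0.29 (adjusted p = 0.0789), and -1.46 ± 0.20 without that library (adjusted p = 0.000222). With the library left out, Cux2 and Prlr passed in each condition and over both, 2 of the 10 genes beside 0.654% of all genes in CV, 2.29% in GF and 1.72% over both.

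**Figure D3:**
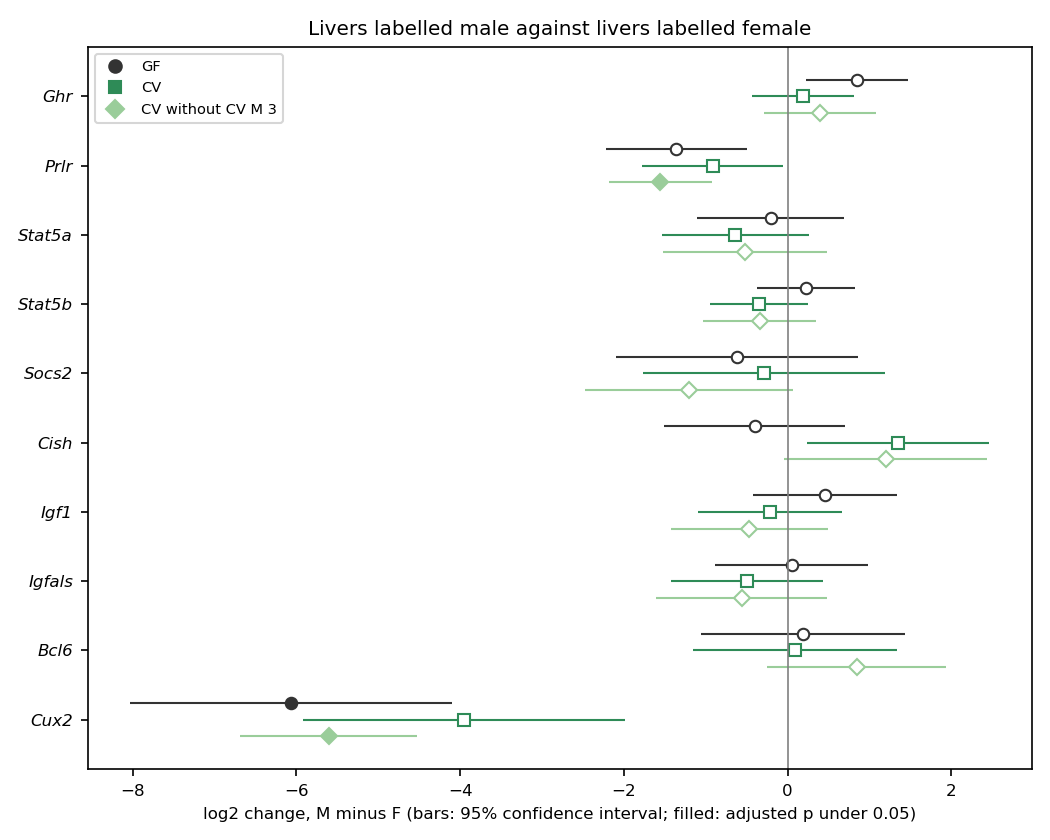
Log2 difference of each axis gene, libraries labelled male minus libraries labelled female (horizontal axis), in GF (black circles), CV (green squares) and CV without the library labelled CV male 3 (light diamonds), with 95% confidence intervals and filled symbols for an adjusted p under 0.05. Cux2 lies at -6.06, -3.95 and -5.60, and Prlr is the only other gene with a filled symbol.

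The remaining axis genes showed no sex difference that passed in the deposited scaling, with or without the library labelled CV male 3. In GF livers Ghr was higher in each male than in each female, with a log2 difference of 0.85 ± 0.29 (limma, adjusted p = 0.149). This difference passed when scaled to all reads (1.19, against a median of 0.37 for all genes under that scaling). Ghr, Prlr and Cux2 were the 3 genes of 10 whose GF males and females did not overlap, beside 18.7% of all genes. In CV livers, with all libraries, Stat5a was the 1 gene without overlap, beside 10.9% of all genes, with CV males at 46.3 to 60.4 and CV females at 78.3 to 91.7. With the library labelled CV male 3 left out, Prlr, Stat5a, Igf1 and Cux2 had no overlap, 4 genes of 10 beside 19.2% of all genes. Bcl6, described as male-biased, differed by 0.19 in GF (95% interval -1.06 to 1.44) and by 0.09 in CV, or 0.84 (95% interval -0.25 to 1.94, not passed) without the library labelled CV male 3. Igf1 and Igfals differed between sexes by 0.45 and 0.05 in GF livers and by -0.22 and -0.49 in CV livers. For the interaction of condition and sex 0 of the 10 genes passed, and limma called 0 of all genes, with 1382 genes at an unadjusted p under 0.05, against 24 genes called by DESeq2 and 0 by edgeR. Without the library labelled CV male 3 limma called 4 of all genes for the interaction, and 0 of the 10 axis genes.

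Of 14 receptor-proximal signalling genes, 1 rose and 4 fell over both sexes and 9 did not pass, beside 32.3% of all genes higher and 28.7% lower, with a list median of 0.07, equal to that of all genes. Grb2, an adaptor to the Ras pathway, rose by 0.60 ± 0.21 (log2; limma, adjusted p = 0.0210). The 4 that fell were Sh2b1, a JAK2-binding adaptor (-0.62 ± 0.16, adjusted p = 0.00286), the insulin receptor substrate Irs2 (-0.88 ± 0.26, adjusted p = 0.00866), the kinase Jak1 (-0.37) and the exchange factor Sos1 (-0.39). Without the library labelled CV male 3, 1 gene of the list rose and 2 fell, beside 32.1% and 28.1% of all genes. Jak2, the kinase bound to GHR, was not among the genes that passed with all libraries. Scaled to all reads the list had 8 genes higher and 0 lower, where 5926 of all genes were higher and 1615 lower. Scaled without the 6 loci it had 0 higher and 5 lower, where 2216 of all genes were higher and 4790 lower. Its balance thus followed the scaling, as did that of all genes.

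Of 11 further feedback regulators and phosphatases, 10 were tested, since Socs1 was under the minimum mean value of 10. None rose and 3 fell, beside 32.3% and 28.7% of all genes, with a list median of -0.20. These were the phosphatase Ptpn2 (-0.90 ± 0.18, limma adjusted p = 0.000455), the ubiquitin ligase Cbl (-1.08 ± 0.28, adjusted p = 0.00310) and the adaptor Sh2b3 (-0.60 ± 0.22, adjusted p = 0.0243). Ptpn2 was at 99.8 to 190 in GF and 64.4 to 98.1 in CV livers, without overlap. None of Socs3, Socs5, Socs6 and Socs7 passed. Scaled to all reads 3 genes of this list were higher and 0 lower, beside 5926 and 1615 of all genes. Cbl lost its call after the length and GC correction (0.09).

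Around IGF1, 10 of 17 hormones, ligands, receptors and binding proteins were tested. The ligand genes themselves were near 0 in liver. Gh was at 0 in every library but GF female 1 (3.02), and Prl was at 0 in all 12. A 0 allows an expected count of up to 3 reads in a library, for counting error only. Over both sexes 4 genes rose and 3 fell, where 32.3% and 28.7% of all genes did. The binding proteins Igfbp2 (2.41 ± 0.28, adjusted p = 3.81e-06), Igfbp4 (2.14 ± 0.25, adjusted p = 4.60e-06), Igfbp3 (1.03 ± 0.19, adjusted p = 0.000228) and Igfbp7 (0.78 ± 0.25, adjusted p = 0.0117) rose in limma. Igfbp3, the partner of IGFALS in the circulating complex, was at 108 to 184 in GF and at 207 to 399 in CV livers, so the conditions were separate as they were for Igfals in females. Igfbp2 was at 312 to 2116 in GF and 2716 to 7350 in CV. The insulin receptor Insr (-0.90 ± 0.20, adjusted p = 0.00102), the growth hormone-lowered binding protein Igfbp1 (-0.87 ± 0.30, adjusted p = 0.0177) and the scarce Igf1r (-1.16 ± 0.42, adjusted p = 0.0245) fell. Igfbp2, Igfbp3 and Igfbp4 passed under each of the other scalings and after the length and GC correction. Igfbp1, Insr and Igf1r did not pass when scaled to all reads (-0.31, -0.34 and -0.66), nor did Insr and Igf1r after the length and GC correction (0.09 and 0.03), and Igfbp7 did not pass when scaled without the 6 loci (0.34).

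Of 12 hepatocyte transcription factors and cofactors that act with STAT5, 4 rose and 2 fell, against 32.3% and 28.7% of all genes. Cebpa, a factor of mature hepatocytes, rose by 1.55 ± 0.20 (log2; limma, adjusted p = 8.07e-06), from 186 to 415 in GF to 640 to 1085 in CV livers, and the conditions did not overlap. Foxa3 (0.96), Hnf4a (0.44) and Foxa2 (0.49) also rose, and Onecut1, also known as HNF6 (-1.76 ± 0.39, adjusted p = 0.00102), and Trim24 (-0.94 ± 0.27, adjusted p = 0.00620) fell. The calls of Hnf4a and Foxa2 ended when scaled without the 6 loci (to 0.06 for Foxa2), and that of Trim24 ended when scaled to all reads (-0.38). Of 10 hepatocyte markers 7 were also higher in CV livers, with a sum of 113805 to 473378 in GF and 394382 to 629471 in CV, and their part in the rise of Igfals and Cebpa was not tested.

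Targets that growth hormone sets differently in the sexes were read as a further output of the axis. Of 23 male-biased targets 21 were tested. In GF livers 17 were higher in males and 0 lower, beside 1.23% and 0.399% of all genes, with a median difference of 4.03 (log2). In CV livers 1 was higher, or 15 without the library labelled CV male 3, beside 0.0509% and 0.373% of all genes. The major urinary protein gene Mup11, for example, differed by 6.24 ± 0.67 in GF (adjusted p = 0.000125) and by 4.22 ± 0.67 in CV (limma, adjusted p = 0.0257). The Mup genes, like the Cyp3a and Cyp2b genes of these lists, are close copies of each other, so the split of reads among them is uncertain. Of 25 female-biased targets 23 were tested, and 11 were lower in GF males and 0 higher, beside 0.399% and 1.23% of all genes. In CV livers 1 was lower, A1bg (-6.92 ± 1.20, adjusted p = 0.0450), or 15 without the library labelled CV male 3. The shares of all genes were 0.00849% and 0.280%. Over both conditions the other scalings and the length and GC correction kept 17 or 18 male-biased targets higher and 14 or 15 female-biased targets lower in males. In those fits 68 to 123 of all genes were higher and 43 to 64 lower. These lists are known by their sex difference, so its direction is no independent finding.

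Between conditions, CV females held 5 male-biased targets above GF females and 0 below, beside 29.8% and 26.0% of all genes. When the library labelled CV male 3 was left out, 10 were above and 1 below, beside 30.0% and 26.1% of all genes. Among the 5 were Mup3 (2.36 ± 0.50, adjusted p = 0.000951), Gstp1 (2.51 ± 0.61, adjusted p = 0.00237), Nudt7 (1.74) and the fatty acid elongase Elovl3 (2.47). Elovl3 was at 25.7, 47.9 and 32.6 in GF females and at 166, 285 and 156 in CV females, without overlap. In males 0 male-biased targets rose and 2 fell, Selenbp2 (-3.27 ± 0.96, adjusted p = 0.0193) and Mup21 (-2.55 ± 0.87, adjusted p = 0.0371), and 0 fell without the library labelled CV male 3. The sexes were not shown to differ in these changes, since 0 genes of the list passed for the interaction. The female-biased targets had 7 higher and 1 lower in females, and 5 higher and 0 lower in males, where 14.1% and 15.4% of all genes were, with Cyp2b10 and Rtn4 higher in both. With the library labelled CV male 3 left out they had 12 higher and 2 lower in females, beside 30.0% and 26.1% of all genes. In males they then had 4 higher and 2 lower, beside 12.1% and 13.1%. For the interaction 0 of the female-biased list passed with all libraries. Without the library labelled CV male 3, 2 passed, with a more positive change in females, beside 0.0340% of all genes. Cyp2b10 rose by 2.46 ± 0.42 in females and by 2.22 ± 0.42 in males (adjusted p = 0.000170 and 0.00215). Of the male-biased list, 11 were higher in CV females when scaled to all reads and 4 when scaled without the 6 loci. Of the female-biased list 10 and 5 were. Of all genes, 5832 and 1933 were higher in CV females under these scalings.

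**Figure D4:**
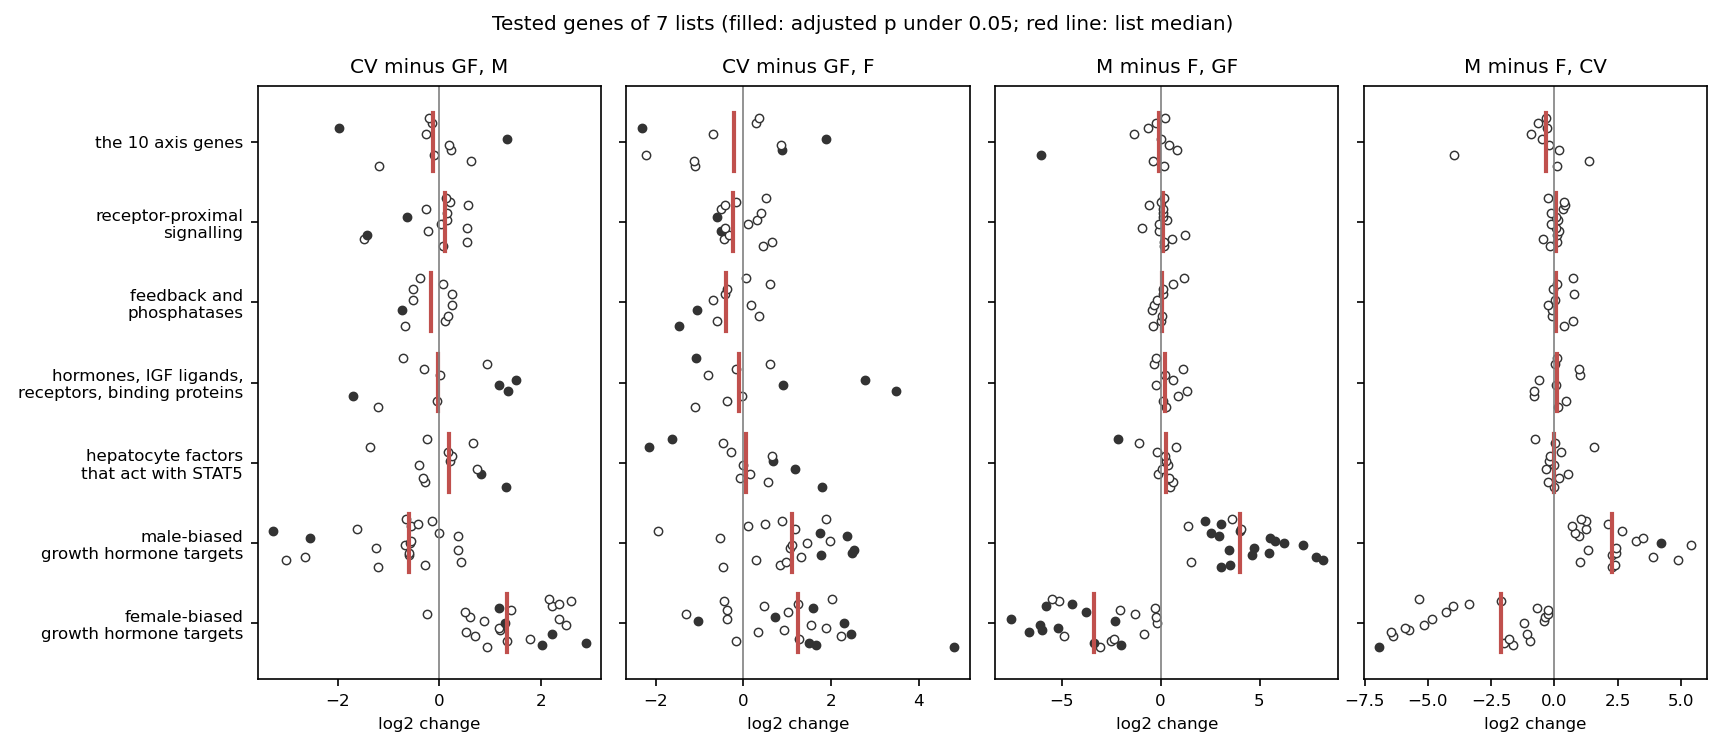
Log2 change (horizontal axis, with its own range in each panel) of every tested gene of 7 lists, as points filled at an adjusted p under 0.05, with the list median as a red line. In the panel of M minus F in GF, 17 male-biased targets are filled to the right of 0 and 11 female-biased targets to the left. The medians of the other lists lie at -0.08 to 0.26, with Cux2 of the axis genes and 1 hepatocyte factor also filled to the left.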

How the data were processed

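RNA of 12 livers was prepared with a stranded mRNA kit and sequenced on an Illumina HiSeq instrument, per the labels. The authors deposited a normalized signal per gene, that is, read counts divided by 1 size factor for each library. The submitters' processing notes name HTSeq 0.6.1p1, DESeq2 and GRCm38. The aligner, the annotation and the strand setting of the counting were not given in the sources used here, so reads of genes that overlap on opposite strands are uncertain. Whole reads were recovered from the deposited signal, with 100% of values within 0.01 reads of a whole number. Depth was 5993619 to 15290835 reads per library, of which 1886932 to 14453077 lay outside 6 abundant loci. A value of 0 allows up to 3 reads, for counting error only.

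Groups came from the labels, with 3 libraries each. Values were compared as log2(value + 1) for the 11782 genes with a mean of at least 10, using limma 3.58.1 in R 4.3.3 on the 4 group means with a mean-variance trend. The contrasts were CV minus GF over both sexes and in each, M minus F likewise, and their interaction, 7 in all, with Benjamini-Hochberg adjustment over all genes tested and a threshold of 0.05. Fold changes on this scale understate those of low genes. Each mouse gave 1 library, and no 2 libraries agreed within counting noise.

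The 10 genes and all lists were chosen with earlier results of these data known, and no list serves as independent support. All 10 are described, and from other lists up to 4 called genes per direction and contrast are named, with Gh, Prl and Jak2 and untested or uncalled SOCS genes named beyond that rule. The alternatives were a pseudocount of 8, no filter on low values, other scalings, a replicate block, the mitochondrial ribosomal RNA share as covariate, omission of each library, edgeR 4.0.16 and DESeq2 1.42.0 on the recovered reads. Scaling to reads outside the 6 loci and the removal of a length and GC trend were added after seeing the data. The fit was tested on simulated data. Gene positions are those of GENCODE mouse release 21 on GRCm38, and promoter windows those of RefSeq on GRCm38.p6.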

Additional observations from a re-analysis of the deposited data

Results flagged for a closer look

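In 2 of 20 sets, each the 6 libraries of a condition for 1 axis gene, the highest or lowest library stood apart from the rest by more than Dixon's 95% limit of 0.625 of the range. Chance alone gives about 1 such set in 20. Both were in CV male 1. Its Ghr value was 4239.6, with the next library at 2711, a gap of 0.720 of the range. Its Bcl6 value was 493, with the next at 179, a gap of 0.715 of the range. CV male 1 also had the lowest share of mitochondrial ribosomal RNA, 1.39%, and 14946450 reads. Whether these move with the Ghr and Bcl6 values was not tested.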

How the results depend on the processing

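Of 70 results on axis genes, 10 genes in 7 contrasts, each recomputed in 21 alternatives, 1368 of 1464 values kept direction and side of the threshold or were called in neither fit, 44 newly passed, 47 no longer passed and 5 reversed. In 117 of the first kind the sign changed while neither value passed. DESeq2 gave no adjusted p for 6 interaction results, which are left out. The 5 reversals all came with the mitochondrial share as covariate, for Ghr over both sexes (-0.58) and in females (-0.71) and for Socs2 over both sexes (3.09), in males (1.16) and in females (5.02). That covariate left 0 genes called over both sexes, 3 in males and 0 in females, 1 for the interaction, 4 for M minus F in GF and 15 in CV, and 0, 0 and 0 axis genes for CV minus GF, 0 for M minus F in GF and 1 in CV. Most of its variance lay between groups.

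Genes called for the interaction were 11 when scaled to all reads and 24 with DESeq2. For M minus F over both conditions DESeq2 called 261. For M minus F in GF, scaling to all reads gave 1393 and DESeq2 447. For M minus F in CV, no filter gave 3, scaling to all reads 17, scaling outside the 6 loci 4, edgeR 30 and DESeq2 50. Axis genes called were 2 over both sexes without the filter, and in males 0 without the filter, 1 when scaled to all reads, 0 with the length and GC trend removed, 1 with edgeR and 1 with DESeq2. In females they were 6 when scaled outside the 6 loci, 5 with the trend removed and 5 with the replicate block. For M minus F over both conditions they were 2 when scaled outside the 6 loci, with the trend removed and with DESeq2, and in GF 2 when scaled to all reads and with DESeq2. Genes called over both sexes, higher and lower, were 3807 and 3387 as deposited, 5926 and 1615 when scaled to all reads, and 2216 and 4790 when scaled outside the 6 loci.

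Leaving out each library in turn gave 6601 to 7445 genes called over both sexes, 1604 to 3884 in males, 5518 to 6964 in females, 0 to 291 for the interaction, 90 to 205 for M minus F over both conditions, 49 to 716 in GF and 3 to 77 in CV. Axis genes called ranged from 2 to 5 over both sexes, 0 to 3 in males, 1 to 6 in females, 0 to 1 for the interaction, 1 to 2 for M minus F over both conditions and in GF, and 0 to 2 in CV. The 291 came without CV male 1 and the 77 without the library labelled CV male 3.

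The replicate numbers are shared by the groups, but no label ties them to a litter or a day. Deviations of the 18 same-numbered pairs correlated at -0.23 to 0.40, over 0.1 in 5 pairs, and 6 of 12 libraries correlated best with their own number, so the numbers were not taken to pair the mice. With the replicate block, Cish and Cux2 in females newly passed (-1.13, adjusted p = 0.0409, and -2.22, adjusted p = 0.0279). The recovered depth limits Cux2 in males, at 0 to 8 reads outside the library labelled CV male 3, and Cish, at 20 reads or more.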

Other observations

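For Igf1, Bcl6 and Cux2, the genes with the most similar values over the 12 libraries were ranked by Pearson's r of log2(value + 1) among 11050 genes. The 12 points share the 4 groups, the abundant loci and the scaling, so the ranks are a description. Igf1 was nearest to Tmed5 (r = 0.965), Serpina11 (0.955) and Apoc3 (0.945), of which the last encodes an apolipoprotein made by hepatocytes. Bcl6 was nearest to Fbxl20 (0.950), Zfp869 (0.928) and Ttc7b (0.926). Cux2 was nearest to Xist (0.976), the RNA of the inactive X chromosome, then to Aldh3b3 (0.924) and Cers6 (0.920). Xist itself was at 7607 to 11928 in GF females and at 1045 to 1090 in CV females, so it was lower in CV females as Cux2 was. Whether these falls are linked was not tested. The library labelled CV male 3 lay with the females for both Cux2 and Xist.

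In the library labelled CV male 3, the male-biased target Elovl3 also lay with the CV females. Its value was 162 there, 156 to 285 in CV females and 3291 and 2137 in the other CV males.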
